A study of Mus musculus with 24 samples.

Results

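Of the 21909 gene symbols in the RNAseq tables of mouse ESCs and NPCs, 10 homeobox genes that mark bands of the developing neural tube were taken by name. Msx1, Msx2, Pax3 and Pax7 mark dorsal progenitors, Pax6, Irx3, Dbx1 and Dbx2 intermediate ones, and Nkx6-1 and Nkx2-2 ventral ones. All 10 genes were listed in all 6 RNAseq samples.

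In the neural tube, Sonic hedgehog from the notochord and floor plate and BMP and Wnt proteins from the roof plate pattern the progenitor cells along the dorsoventral axis. Each band of progenitors holds its own combination of homeodomain transcription factors, factors of adjoining bands repress each other, and the combination sets the class of neuron that a band will make. Hedgehog signalling induces Nkx6-1 and Nkx2-2 and limits the Pax, Irx and Dbx factors, and retinoic acid promotes factors of the intermediate bands.

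The study mapped nucleolus-associated domains (NADs) with Nucleolar-DamID and measured RNA in E14 ESCs and in NPCs made from them. ESCs were grown in medium with LIF and both kinase inhibitors of the 2i condition, 3 µM CHIR99021 and 1 µM PD0325901. NPCs came from embryoid bodies differentiated for 8 days in serum-containing medium, to which retinoic acid (2 µM) was added for the final 4 days, and are described as radial glial cells positive for Pax6. RNA was sequenced from 3 separate dishes of each cell type, untreated and without a sort for any marker, so each value is a mean over all cells of a dish. Culture, differentiation and any sequencing batch changed together between ESCs and NPCs and cannot be told apart. In these bulk samples, fewer cells of a type and less RNA per cell cannot be told apart either.

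The deposited values are RPKM, reads per kilobase scaled to the total reads of the sample, and their low values were whole multiples of 1 read when the length was taken as the whole gene with its introns. Between 96.4% and 96.7% of the values under 50 reads came out whole within 0.05 of a read, against 13.7% to 14.4% with the length of the exons. The totals behind the values were 34.1, 33.7 and 30.8 M reads in ESC samples 1, 2 and 3 and 30.2, 27.3 and 32.3 M in NPC samples 1, 2 and 3. A gene with long introns therefore has a low RPKM for its reads. Levels of different genes are compared below as RPKM recomputed with the length of the exons, called the exon-scaled level. Differences between cell types are given as reads, as the ratio of reads over the totals (depth-scaled reads) or as log2(RPKM + 1). The study's methods name exon coverage, but the values do not show whether reads in introns were counted. If they were, the exon-scaled level of a gene with long introns is too high.

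ESC sample 3 stood apart from the other ESC samples. Its Pearson correlation with them over genes was 0.9631 and 0.9659, against 0.9985 between ESC samples 1 and 2, and its RPKM values summed to 141243, against 105011 and 106892. Since RPKM divides by gene length and total reads, the higher sum means that a larger share of its reads fell in short genes. The cause was not tested. The NPC samples correlated with each other at 0.9960 to 0.9985. The differences of the 10 homeobox genes are therefore also given without ESC sample 3.

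ESCs held almost no reads of these genes and NPCs held many of most of them. Summed over the 10 genes, reads numbered 54, 65 and 44 in ESC samples 1, 2 and 3 and 4262, 4317 and 5944 in NPC samples 1, 2 and 3. In NPCs, Dbx1, Irx3 and Msx1 had the highest exon-scaled levels, Pax6, Msx2, Nkx6-1, Pax7 and Pax3 followed, Dbx2 was low, and Nkx2-2 was near 0 in both cell types. With limma, 9 of the 10 genes were called higher in NPCs (adjusted p under 0.05) and Nkx2-2 was not called. Of all 7907 genes at 1 RPKM or more in at least 3 samples, 36.9% were called higher and 33.3% lower in NPCs. Msx1, Msx2, Pax6, Irx3, Dbx1 and Nkx6-1 passed that filter, each through its NPC samples alone, so these 6 genes had to differ and their number is no support. Pax3, Pax7, Dbx2 and Nkx2-2 were read from the limma fit over all 18504 genes above 0 in any sample, where 39.4% of genes were called higher and 23.0% lower. In these fits no member was called lower by limma, and none was lower at an unadjusted p under 0.05. With median centring, limma called Dbx2 and Nkx2-2 lower, by 0.079 and 0.108. That scaling subtracts the same value from every gene of a sample, also from genes near 0 reads. Fitted on the recovered reads with limma's voom, a choice made after seeing the data, 9 of the 9 genes with enough reads were called higher, against 45.9% of 14541 genes called higher and 28.1% lower, and 0 members were called lower. Of these 9 genes, 8 needed their NPC samples to pass the filter on reads, so this count is no added support.

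**Figure D1:**
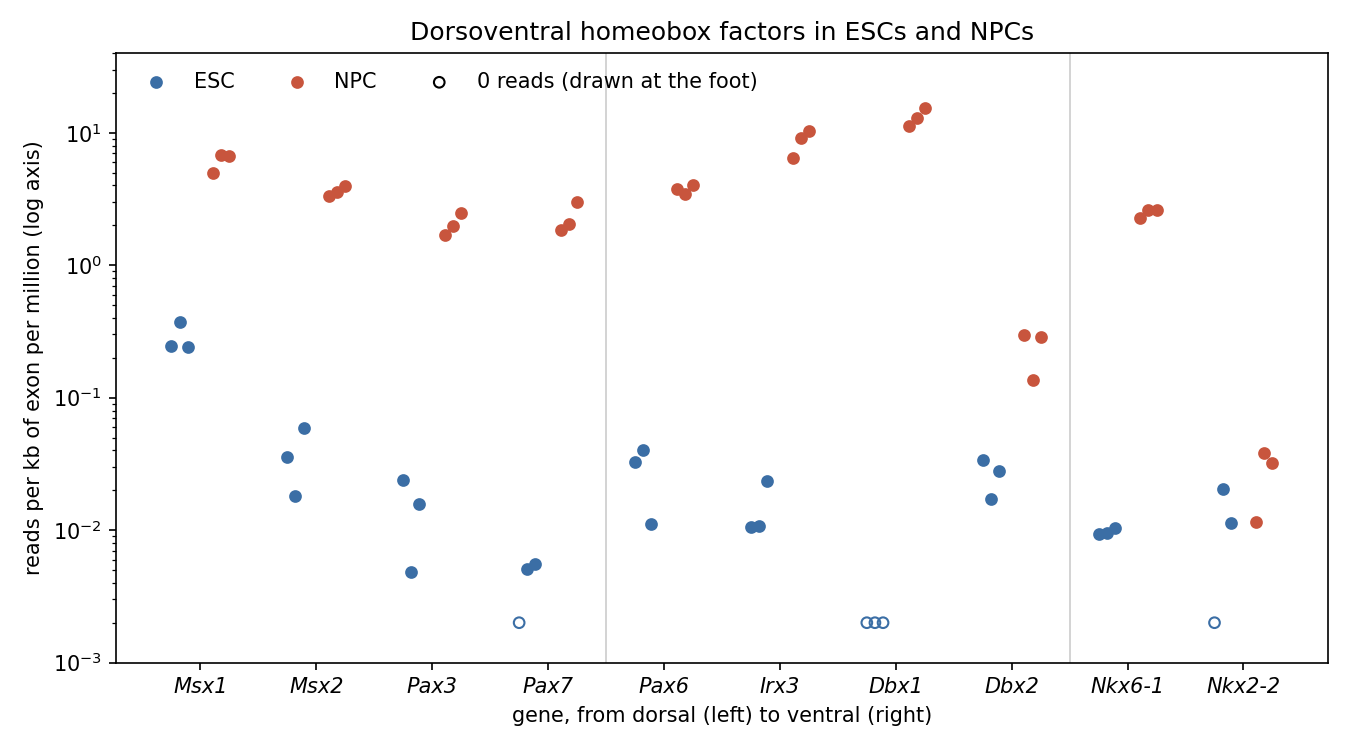
Exon-scaled level of each of the 10 genes (RPKM with the length of the exons, log axis) in the 3 ESC and 3 NPC samples, 1 point per sample, with samples at 0 reads drawn as open points at the foot of the axis. NPC samples lie above ESC samples except for Nkx2-2, whose points overlap, and no share of all genes with such a separation is given here. Dbx1 has 0 reads in ESCs and the highest levels in NPCs.

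Among the dorsal factors, Msx1 and Msx2 are targets of BMP signalling in the roof of the neural tube and in limb, heart and facial mesenchyme. Msx1 had 26, 39 and 23 reads in ESC samples 1, 2 and 3 and 466, 574 and 663 in NPC samples 1, 2 and 3. It was the only one of the 10 genes with more than 20 reads in every ESC sample, and its NPC samples all lay above its ESC samples. Its depth-scaled reads were 21.3-fold higher in NPCs, with a 95% exact interval of 17.2 to 26.7 that covers counting error only, as do the intervals that follow. On the log2(RPKM + 1) scale, which understates the change of low genes, Msx1 was higher by 2.20 ± 0.11 (SE, n = 3 and 3, limma adjusted p = 4.53e-06). Msx2 had 4, 2 and 6 reads in ESCs and 329, 318 and 419 in NPCs. Its 3 NPC samples spread little, with an exon-scaled level of 3.61 ± 0.318 (SD, n = 3), and none overlapped with ESCs. For Msx2 the ratio of depth-scaled reads was 97.6 (55.6 to 189), and the log2 difference was 1.51 ± 0.049 (SE, limma adjusted p = 6.67e-07).

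Pax3 and Pax7 are paired-box factors of the dorsal neural tube, and of neural crest and muscle precursors outside it. Pax3 had 5, 1 and 3 reads in ESCs and 318, 333 and 495 in NPCs. Pax7 had 0, 1 and 1 reads in ESCs and 329, 327 and 572 in NPCs. For both genes the ESC and NPC samples did not overlap and NPC sample 3 was the highest. The ratio of depth-scaled reads was 140 (73.4 to 307) for Pax3 and 675 (186 to 5577) for Pax7, where the 2 reads of the ESC group make the interval wide. Both genes span more than 95 kb, 95868 bases for Pax3 and 96467 for Pax7, against 6187 and 5860 bases of exon. Their deposited RPKM in NPCs was therefore low, 0.110, 0.127 and 0.160 for Pax3 and 0.113, 0.124 and 0.184 for Pax7, and both failed the filter of 1 RPKM. In the fit over all genes above 0, Pax3 and Pax7 were higher by 0.18 ± 0.016 and 0.19 ± 0.024 (SE, log2(RPKM + 1), limma adjusted p = 2.96e-04 and 0.00113). Those calls were lost when samples were centred on their median, which moved the median difference over these genes from 0.01 to -0.10: Pax3 then had 0.07 and Pax7 0.08. On the reads, voom gave log2 differences of 7.08 ± 0.46 for Pax3 and 8.71 ± 0.53 for Pax7 (SE, limma adjusted p = 1.32e-05 and 9.28e-06), against a median of 0.38 over all genes tested.

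Among the intermediate factors, Pax6 is the paired-box factor by which the study describes the NPCs, so its rise is no independent evidence of their identity. Pax6 had 13, 16 and 4 reads in ESCs and 1328, 1105 and 1535 in NPCs, the most reads of the 10 genes in each NPC sample. Its ESC and NPC samples did not overlap, and NPC sample 2 was the lowest of the NPC samples. Depth-scaled reads of Pax6 were 132-fold higher in NPCs (93.9 to 192), and the log2 difference was 1.33 ± 0.043 (SE, limma adjusted p = 6.19e-07). An exon length of 11694 bases placed its exon-scaled level, at 3.77 ± 0.299 (SD, n = 3), below those of Dbx1, Irx3 and Msx1. That length of Pax6 joins the exons of all annotated isoforms, and a level per length of the isoform used was not computed. On the other strand, the antisense gene Pax6os1 overlaps Pax6 by 1431 bases. The study's methods name a stranded library kit and the sample labels an unstranded kit, and neither says whether strand was used in counting, so reads of Pax6 and Pax6os1 cannot be told apart.

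Irx3 is an Iroquois factor that is repressed by hedgehog signalling and sets the dorsal limit of motor neuron progenitors. Irx3 had 1, 1 and 2 reads in ESCs and 537, 687 and 921 in NPCs. NPC sample 1 was the lowest for Irx3 and sample 3 the highest, 1.60 times apart in RPKM, and no NPC sample overlapped with ESCs. The ratio of depth-scaled reads was 589 (230 to 2164), and the log2 difference of 2.91 ± 0.15 (SE, limma adjusted p = 5.17e-06) was the largest of the 10 genes on that scale. The antisense gene Irx3os overlaps Irx3 by 1653 bases, so reads of these genes cannot be told apart either.

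Dbx1 and Dbx2 mark the middle of the neural tube, where progenitors of ventral interneurons arise, Dbx1 in a narrower band inside that of Dbx2. Dbx1 had 0 reads in every ESC sample and 708, 735 and 1041 in NPCs. Its depth-scaled reads were at least 910-fold higher in NPCs, taken against 3 reads over the whole ESC group. The log2 difference of Dbx1 was 2.61 ± 0.100 (SE, limma adjusted p = 1.33e-06). Dbx2 had 4, 2 and 3 reads in ESCs and 31, 13 and 32 in NPCs. Its ESC and NPC samples did not overlap, but NPC sample 2 held fewer reads than the other NPC samples. For Dbx2 the ratio of depth-scaled reads was 9.28 (4.64 to 21.1), the smallest among the genes that were called. In the fit over all genes above 0, Dbx2 was higher by 0.03 ± 0.0069 (SE, limma adjusted p = 0.00903), and this call was lost with quantile normalization (0.01) and turned with median centring (-0.08). For the reads of Dbx2, voom gave a log2 difference of 2.97 ± 0.44 (SE, limma adjusted p = 7.92e-04). The exon-scaled level of Dbx1 was 37.9, 93.8 and 54.0 times that of Dbx2 in NPC samples 1, 2 and 3. Dbx1 thus lay far above Dbx2 in each NPC sample, although the ratio itself varied with the few reads of Dbx2.

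Among the ventral factors, Nkx6-1 marks progenitors of motor neurons and of the interneurons next to them, and Nkx2-2 the progenitors beside the floor plate. Nkx6-1 had 1, 1 and 1 reads in ESCs and 215, 222 and 263 in NPCs. Its NPC samples were the closest together of the 10 genes, with the highest 1.14 times the lowest in RPKM. Depth-scaled reads of Nkx6-1 were 256-fold higher in NPCs (87.4 to 1246), and the log2 difference was 1.09 ± 0.036 (SE, limma adjusted p = 7.31e-07). Nkx2-2 had 0, 2 and 1 reads in ESCs and 1, 3 and 3 in NPCs. Its ESC and NPC samples overlapped, and the ratio of depth-scaled reads, 2.56, had an interval from 0.585 to 15.4. A difference of Nkx2-2 was not detectable at this depth (limma adjusted p = 0.207 in the fit over all genes above 0). With median centring Nkx2-2 was called lower (-0.108), through a shift given to every gene and not a fall in its reads. Its exon-scaled level in NPCs, 0.0274 ± 0.0140 (SD, n = 3), lay below that of Nkx6-1 by 197, 67.8 and 80.3 times in NPC samples 1, 2 and 3. These ratios rest on 1, 3 and 3 reads of Nkx2-2, so their size is uncertain. The antisense gene Nkx2-2os covers 10161 bases of Nkx2-2, so the few reads of Nkx2-2 need not all be its own.

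Without ESC sample 3, limma again called the same 9 genes higher. The log2(RPKM + 1) differences without it were 2.18 for Msx1, 1.52 for Msx2, 1.33 for Pax6, 2.92 for Irx3, 2.61 for Dbx1 and 1.09 for Nkx6-1. In the fit over all genes above 0 they were 0.18 for Pax3, 0.19 for Pax7 and 0.03 for Dbx2 (limma adjusted p = 0.00130, 0.00411 and 0.0233), and Nkx2-2 again had no call (adjusted p = 0.276). The ratio of depth-scaled reads without that sample was 19.8 for Msx1, 134 for Msx2, 144 for Pax3, 928 for Pax7, 103 for Pax6, 810 for Irx3, 9.57 for Dbx2, 264 for Nkx6-1 and 2.64 for Nkx2-2, and for Dbx1 at least 626. The log2 differences of voom without it were 7.21 for Pax3, 9.03 for Pax7 and 3.04 for Dbx2. Scaling every sample to the same sum of RPKM moved the median difference over all 7907 genes from 0.02 to 0.33 and the split of the calls from 2915 higher and 2636 lower to 3687 higher and 1636 lower. Quantile normalization gave 2702 higher and 3022 lower, and median centring 2609 and 3018, so the balance of the calls depends on the scaling. Each of Msx1, Msx2, Pax6, Irx3, Dbx1 and Nkx6-1 stayed above that median and was called higher under this scaling. These genes passed the filter through their NPC samples alone, so this adds no support.

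In NPCs, the exon-scaled levels of the 10 genes ran from Dbx1 (11.2, 12.9 and 15.4 in NPC samples 1, 2 and 3) through Irx3 (6.45, 9.12 and 10.3) and Msx1 (4.99, 6.80 and 6.63) to Pax6 (3.77, 3.47 and 4.06). Below them came Msx2 (3.33, 3.56 and 3.96), Nkx6-1 (2.27, 2.59 and 2.59), Pax7 (1.86, 2.05 and 3.02) and Pax3 (1.70, 1.97 and 2.48). Dbx2 followed with 0.296, 0.137 and 0.286, and Nkx2-2 was last. Ranges of neighbours in this order did not overlap between Dbx1 and Irx3, between Msx1 and Pax6, between Msx2 and Nkx6-1, between Pax3 and Dbx2, or between Dbx2 and Nkx2-2. They overlapped for Irx3 and Msx1, for Pax6 and Msx2, for Nkx6-1 and Pax7, and for Pax7 and Pax3. Within samples, Irx3 was above Msx1 and Pax7 above Pax3 in 3 of the 3 NPC samples, and Pax6 was above Msx2 and Nkx6-1 above Pax7 in 2 of the 3. The order depends on the length used. With the deposited RPKM, Irx3 was above Dbx1 and Msx2 above Pax6 in 3 of the 3 NPC samples. Among 21454 genes with an exon length, the mean exon-scaled level of Dbx1 in NPCs ranked 4084th, that of Irx3 5747th and that of Msx1 7022nd from the top, while Pax3 ranked 10038th and Nkx2-2 15613th. Even the highest of the 10 genes was thus a gene of moderate level in these bulk samples.

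Summed by band, the exon-scaled level in NPC samples 1, 2 and 3 was 11.9, 14.4 and 16.1 for the 4 dorsal genes, 21.7, 25.6 and 30.1 for the 4 intermediate genes and 2.28, 2.63 and 2.63 for the 2 ventral genes. Factors of dorsal, intermediate and ventral bands were thus present together in each NPC sample, with Nkx6-1 as nearly the whole of the ventral sum. Whether any cell held more than one of the 10 genes, bulk values do not show. NPC sample 1 was the lowest NPC sample in RPKM for 8 of the 10 genes and NPC sample 3 the highest for 7. The highest over the lowest NPC sample came to 3.32 for Nkx2-2 and 2.16 for Dbx2, which had few reads, to 1.62 for Pax7, 1.60 for Irx3, 1.45 for Pax3, 1.37 for Dbx1 and 1.36 for Msx1, and was smaller for Msx2, Pax6 and Nkx6-1.

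For the genes that passed the filter, the most similar genes over the 6 samples were taken by Euclidean distance of log2(RPKM + 1). That distance follows the level and the difference of the deposited RPKM, which is scaled to the whole gene. A small distance thus need not mean a similar exon-scaled level. On the exon scale, Neurog1 was at 4.23, 4.70 and 6.30 in NPC samples 1, 2 and 3 and Dbx1 at 11.2, 12.9 and 15.4. Dbx1 was closest to Neurog1, a proneural factor (distance 0.21), and to Pgf, a placental growth factor (0.22). Irx3 was closest to Hbb-y, an embryonic globin (0.13), and to Arhgap33 (0.25). Msx1 was closest to Gpr153 (0.21) and Mdfi, an inhibitor of myogenic factors (0.22), and Msx2 to Gng8 (0.08) and Pth1r, a parathyroid hormone receptor (0.09). Pax6 was closest to App (0.08) and Slc36a4 (0.11), and Nkx6-1 to Gucy1a3 (0.07) and Stra6, a retinol transporter (0.08). Distances between low genes are small by construction, so those of Msx2, Pax6 and Nkx6-1 do not compare with those of Irx3 or Dbx1.

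Within their families, the 10 genes were not alone. Msx3, the Msx gene confined to the dorsal neural tube, had exon-scaled levels of 7.84, 9.57 and 10.9 in NPC samples 1, 2 and 3, which were 1.57, 1.41 and 1.64 times those of Msx1, and rose by 3.05 on the log2(RPKM + 1) scale. Irx3 was 2.78, 3.07 and 3.15 times as high as Irx1 (log2 difference 1.19, called higher) and 3.15, 3.15 and 2.87 times as high as Irx5, its neighbour on chromosome 8, which is named after its values were seen. Irx2 had the opposite direction, at 3.36, 3.24 and 4.43 in ESCs and 2.41, 2.55 and 2.99 in NPCs (log2 difference -0.31). That call of Irx2 was lost with scaling to the same sum of RPKM, without the filter and without any of ESC sample 1 or the NPC samples. In the Nkx family, Nkx6-1 was the only gene of the 14 listed that passed the filter and rose, while its paralog Nkx6-2 fell from 17.1, 18.4 and 26.5 to 0.122, 0.154 and 0.276 (log2 difference -3.48), and Nkx6-3 and Nkx1-2 fell by 1.04 and 2.74 on the log2(RPKM + 1) scale. Nkx6-2, Nkx6-3 and Nkx1-2 were below 1 RPKM in every NPC sample, passed the filter through ESCs alone and had to differ. ESCs thus held Nkx6-2 and no more than 1 read per sample of Nkx6-1, and NPCs the reverse order of levels. Among the 9 Pax genes, Pax6 alone passed the filter, through NPCs alone, and on reads 6 of the 6 with enough reads were called higher, Pax3, Pax6 and Pax7 among them, against 45.9% of all genes, but 5 of the 6 needed NPC samples to pass the filter on reads.

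Of 24 other factors of dorsoventral progenitor domains, 7 passed the filter, 6 were called higher and 1, Nkx6-2, lower, and on reads 18 of 19 were called higher and 1 lower. As for Dbx1 and Irx3, 6 of the 7 were below 1 RPKM in every ESC sample and had to differ, and 16 of the 19 needed NPC samples to pass the filter on reads. Nkx6-2 passed the filter of 1 RPKM through ESCs alone and had to differ as well. Over all genes 36.9% were called higher and 33.3% lower with the filter and 45.9% and 28.1% on reads. Neurog1, a proneural factor of dorsal and intermediate domains, reached 4.23, 4.70 and 6.30 on the exon scale in NPCs. Olig2, Foxa2 and Nkx2-9 are named here after their values were seen. The motor neuron progenitor factor Olig2 had 0 reads in ESCs and 44, 74 and 77 in NPCs, which left Nkx6-1 at 3.91, 2.41 and 2.75 times its exon-scaled level. Foxa2, a factor of the floor plate and of endoderm, was at 1.96, 3.19 and 2.60, near the level of Nkx6-1, while Nkx2-9, which flanks the floor plate with Nkx2-2, had 9, 18 and 8 reads in ESCs and 4, 4 and 5 in NPCs. Nkx2-2 and Nkx2-9 were thus both near 0 in samples that held reads of Nkx6-1, Olig2 and Foxa2.

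Of 31 factors of the neuron classes that arise from these bands, 5 passed the filter, 4 were called higher and 1, Foxd3, lower, and on reads 19 of 23 were called higher and 3 lower, against 36.9% and 45.9% of all genes called higher. Of the 5, 4 passed the filter through NPCs alone, like Dbx1, and had to differ, and 14 of the 23 needed NPC samples to pass on reads. Foxd3 passed the filter through ESCs alone and had to differ as well. Lhx1, a factor of several interneuron classes, reached 10.7, 10.7 and 12.6 on the exon scale in NPCs, a range that overlaps that of Dbx1. Lhx3, a factor of motor neurons and V2 interneurons, reached 2.78, 4.93 and 4.32, and Gata2, which is also a factor of blood progenitors, 5.23, 5.21 and 4.76, while Foxd3, which is also a factor of pluripotent cells, fell from 7.64, 8.14 and 7.16 to 0.871, 0.805 and 0.813.

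Of 29 genes of the signals that pattern the dorsoventral axis and their readouts, 12 passed the filter and all 12 were called higher, and on reads 26 of 28 were called higher and 0 lower, against 36.9% and 45.9% of all genes called higher. Of the 12, 7 passed through NPCs alone, like Msx1 and Msx2, and had to differ, and 10 of the 28 needed NPC samples to pass on reads. Id2 and Id3, targets of BMP signalling, rose by 5.07 and 4.41 on the log2(RPKM + 1) scale, alongside Msx1 and Msx2. Gas1, a co-receptor of hedgehog, rose by 5.92, and Gli1, a target of hedgehog signalling, by 3.38. Shh had 1, 2 and 1 reads in ESCs and 267, 253 and 257 in NPCs, and Cyp26a1, a target of retinoic acid, rose by 4.36. Gli1, Shh and Cyp26a1 were chosen after their values were seen. Of 26 factors of rostrocaudal regions, 10 passed the filter, 7 of them through NPCs alone, so that they had to differ, 8 were called higher and 2 lower, and on reads, where 11 of 21 needed NPC samples to pass, 14 were called higher and 7 lower, against 36.9% and 45.9% of all genes called higher. Hoxa5 and Hoxb4, factors of the hindbrain and the neck level of the cord, reached exon-scaled levels of 141, 129 and 126 and of 47.8, 50.8 and 51.4 in NPCs, above those of Dbx1 in each sample, while Otx2, a forebrain and midbrain factor, fell by 1.28 and Gbx2 by 1.03. Otx2 passed the filter through ESCs alone and had to differ.

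Because several of the 10 genes are also used outside the neural tube, marker lists of the cell types that NPC cultures could hold were read beside them. Markers named below by their reads, and those left out of a sum, were chosen after their values were seen. Where a marker was below 1 RPKM in every ESC sample, it passed the filter through NPCs alone and had to differ, as did 4 of 9 neural progenitor markers, 9 of 9 of lateral mesoderm and mesenchyme, 4 of 6 of neural crest, 2 of 2 of somite and muscle, 4 of 6 of endoderm and pancreas and 1 of 3 of eye field and retina. Likewise, markers below 1 RPKM in every NPC sample passed through ESCs alone and had to differ. Among them were Foxd3, Cdh1, Otx2, Pmel, Tfap2c and Stmn2. So were the pluripotency markers Pou5f1, Nanog, Zfp42, Esrrb, Klf2, Tfcp2l1, Dppa3 and Fgf4. On reads, NPC samples were needed to pass by 3 of 12, 9 of 13, 6 of 10, 3 of 8, 6 of 8 and 1 of 5 markers of these lists in the same order, by 1 of 8 of surface ectoderm and by 3 of 10 of neurons. The counts below stand against 36.9% higher and 33.3% lower with the filter and 45.9% and 28.1% on reads over all genes. Of 12 neural progenitor markers, 9 passed the filter, 6 were called higher, Pax6 itself among them, and 1 lower, and on reads 9 of 12 were called higher and 1 lower, against 36.9% and 45.9% of all genes called higher. Sox1, one of the 6 called higher, lost its call with quantile normalization (log2 difference 0.265). Nes and Sox3 rose by 2.83 and 2.92, Sox2 fell by 4.02, and Vim, the most abundant of the list in NPCs, was not called (log2 difference 0.21) but was with 2 other scalings and without ESC sample 3. The list summed to 245, 246 and 243 in ESC samples 1, 2 and 3 and 201, 216 and 228 in NPC samples 1, 2 and 3 on the exon scale, and none of its genes was at 0 reads over the NPC samples. Without Sox2, also a factor of pluripotent cells, it summed to 88.3, 91.9 and 101 in ESCs and 194, 208 and 218 in NPCs. Of 10 pluripotency markers, all 10 were called lower, against 33.3% of all genes, the sum fell from 1460, 1479 and 1547 to 21, 20.7 and 19.6, Tbx3 was the most abundant left, and Dppa3 was at 0 reads in NPCs. Apart from Tbx3 and Klf4, these markers passed the filter through ESCs alone, so their number is no support. The call of Tbx3 was lost with the same sum of RPKM.

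Markers of lateral mesoderm and mesenchyme, where Msx1 and Msx2 are also expressed, had the largest ratio of summed level of these lists. Of 14 markers, 9 passed the filter, through NPCs alone, and all 9 were called higher (median log2 difference 2.74), as were 36.9% of all genes tested. The sum of the list went from 1.22, 1.31 and 0.884 in ESCs to 403, 420 and 410 in NPCs. The most abundant on the exon scale, Gata4, a factor of heart and endoderm named after its values were seen, reached 109, 109 and 112 in NPCs, against 4.99, 6.80 and 6.63 for Msx1, and Foxf1 and Col1a1 rose by 4.79 and 4.56. No gene of that list was at 0 reads over the NPC samples, though Hand1 had only 3, 1 and 0. Of 10 neural crest markers, 4 were called higher and 2 lower of 6 that passed the filter, and on reads 6 of 10 were called higher and 4 lower (all genes: 36.9% and 33.3%, on reads 45.9% and 28.1%), with Twist1 the most abundant, Sox10 at 22, 25 and 32 reads in NPCs, and Foxd3 and Ngfr lower (log2 differences -2.24 and -0.67). Twist1 and Sox9 had the largest rise, by 4.44 and 3.48. Sox9 had 4, 2 and 5 reads in ESCs and 1655, 1637 and 1873 in NPCs. The call of Ngfr was lost with the same sum of RPKM. Their sum went from 34.5, 36.9 and 23.9 to 79.7, 84.2 and 82.0, and none was at 0 reads. The part of mesenchymal and crest cells in the levels of Msx1, Msx2, Pax3 and Pax7 was not tested.

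For muscle precursors, which also express Pax3 and Pax7, the myogenic factors had few reads in NPC samples 1, 2 and 3: Myf5 2, 0 and 0, Myod1 0, 0 and 1, Myf6 0, 0 and 3, and Myog 7, 3 and 4 (0, 3 and 0 in ESCs). Of 12 markers of somite and muscle, 2 passed the filter and both were called higher, and on reads 6 of 8 were called higher and 1 lower (all genes: 36.9% higher, on reads 45.9%). The sum went from 4.98, 5.13 and 5.78 to 28.6, 30.8 and 29.3, and Tbx18 was the most abundant. Meox1, which also passed the filter, had 0, 0 and 1 reads in ESCs and 635, 556 and 631 in NPCs. For pancreas, which expresses Nkx6-1, Pax6 and Nkx2-2, Ins1 and Ins2 were at 0 reads in NPCs and Pdx1 had 2, 1 and 1, while the hormone genes Sst and Gcg had 138, 167 and 204 and 46, 24 and 22. Of 12 markers of endoderm and pancreas, 4 of 6 that passed the filter were called higher, Foxa1 and Sst with the largest rise, and 2, Cdh1 and Epcam, lower, a call that Epcam lost with the same sum of RPKM, and on reads 6 of 8 were called higher and 2 lower (all genes: 36.9% higher, on reads 45.9%). Their sum was 213, 222 and 139 in ESCs and 35.9, 41.8 and 38.9 in NPCs, with Epcam the most abundant. Without Cdh1 and Epcam, which mark epithelia more widely, the sum was 0.115, 0.139 and 0.141 in ESCs and 16.9, 21.8 and 20.0 in NPCs.

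For the eye field, which expresses Pax6, Rax had 13, 3 and 0 reads in NPCs, Six6 10, 15 and 4, and Six3, which was called higher on reads, 29, 54 and 48. Of 10 markers of eye field and retina, 1 of 3 that passed the filter, Lhx2, was called higher and 2, Otx2 and Pmel, lower, and on reads 2 of 5 were called higher and 3 lower (all genes: 36.9% higher, on reads 45.9%). All 3 had to differ, Lhx2 through NPCs alone and Otx2 and Pmel through ESCs alone. The sum went from 35.5, 34.6 and 31.1 to 12.5, 11.7 and 10.00, with Lhx2 the most abundant and none at 0 reads over the NPC samples. Of 12 markers of surface ectoderm and placode, 2 of 4 that passed the filter, Krt8 and Krt18, were called higher and 1, Tfap2c, lower, and on reads 4 of 8 were called higher and 3 lower (all genes: 36.9% higher, on reads 45.9%). Krt18, at 0.586, 0.630 and 1.19 RPKM in ESC samples 1, 2 and 3, needed its NPC samples to pass the filter, and Tfap2c its ESC samples. The remaining marker of the 4 that passed, Six4, was called lower with quantile normalization, with median centring and without ESC sample 3. Their sum went from 44.5, 43.8 and 33.8 to 158, 167 and 163, with Krt18 the most abundant and none at 0 reads. Of 10 neuron markers, 1 of 3 that passed the filter, Nefl, was called higher and 2, Stmn2 and Tubb3, lower, and the sum went from 85.3, 91.4 and 111 to 58.2, 49.0 and 56.0, with Tubb3 the most abundant and none at 0 reads. On reads, where long genes are kept, 8 of the 10 neuron markers were called higher and 2 lower, against 45.9% and 28.1% of all genes. The call of Nefl was lost with quantile normalization and median centring, and that of Tubb3 with the same sum of RPKM. The parts of these cell types in the levels of the 10 homeobox genes were not tested.

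**Figure D2:**
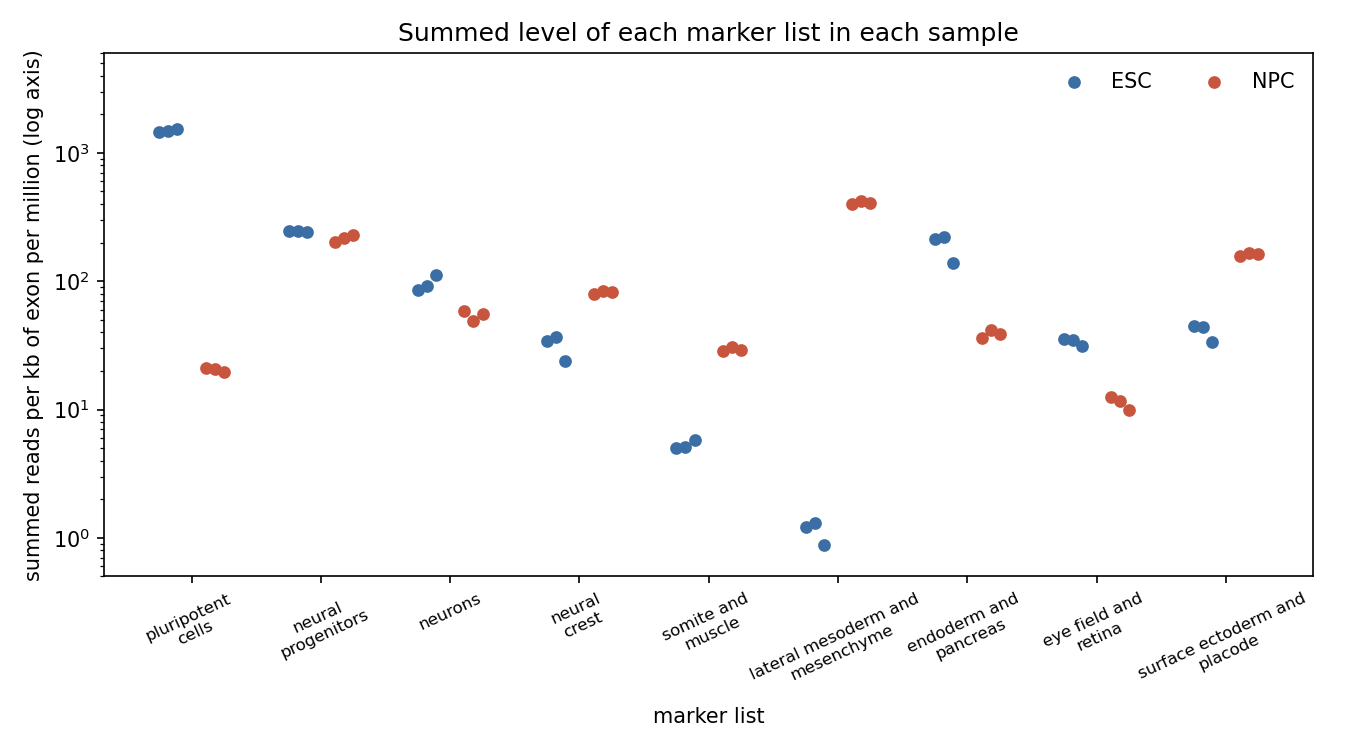
Sum of the exon-scaled level (RPKM with the length of the exons, log axis) of each of 9 marker lists in the 3 ESC and 3 NPC samples, 1 point per sample. Pluripotency markers fall from above 1000 to about 20, markers of lateral mesoderm and mesenchyme rise from about 1 to 403 or more, and neural progenitor markers sum to 243 to 246 in ESCs, most of it Sox2, and to 201 to 228 in NPCs.

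The 10 genes lie on 8 chromosomes of GRCm38 and were set against the NADs called in each cell type. A NAD is a domain where DNA is methylated more by a Dam methylase fused to a nucleolar H2B (H2B-Dam-NoLS) than by H2B-Dam. The NADs came from 2 samples of each in ESCs and in NPCs, in clonal lines with the transgene at Rosa26. The transgene was induced over 15 h with doxycycline (100 ng/ml) plus Shield1 (1 µM). For the NADs of NPCs, cells were dissociated from embryoid bodies after 8 days and replated on gelatin before induction. The study's methods name no such step for the RNA, so the NAD and RNA samples of NPCs may differ in state. The lists hold 1769 NADs in ESCs and 1447 in NPCs, called at a resolution of about 100 kb, and give 1 score per NAD with no replicate values, so the overlaps carry no test. Of the 10 genes, 1 overlapped a NAD of ESCs and 0 overlapped a NAD of NPCs. Of all 21259 genes placed on chromosomes 1 to 19 and X, 27.2% overlapped a NAD in ESCs and 21.7% in NPCs.

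The overlapping gene was Dbx2, at chr15:95623563-95655960, which lay whole inside a NAD of ESCs at chr15:95600103-95700389 with a score of 0.0202. The median score of the ESC list was 0.0256, and the NAD over Dbx2 ranked 1374th of 1769. In NPCs the nearest NAD to Dbx2 was 5024 kb away, and no NAD of NPCs lay within 1500 kb. Dbx2 was thus in a low-scoring NAD in ESCs, in none in NPCs, and had 31, 13 and 32 reads in NPCs against 4, 2 and 3 in ESCs.

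Pax6, at chr2:105668900-105697364, ended 2.64 kb before a NAD at chr2:105700002-106299386 that was called with the same borders in both cell types, with a score of 0.0484 in ESCs and 0.0731 in NPCs. The distance of Pax6 to it is below the resolution of the map. Nkx6-1, at chr5:101658139-101664996, lay 36.1 kb from a NAD of ESCs at chr5:101701128-101799692 and 2835 kb from the nearest NAD of NPCs. Counting genes within 50 kb of a NAD, 3 of the 10 genes (Pax6, Dbx2 and Nkx6-1) were in or near a NAD in ESCs and 1 (Pax6) in NPCs, against 33.6% and 27.1% of all genes.

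Nkx2-2, at chr2:147177546-147194243, lay 77.5 kb from a NAD at chr2:146999596-147100088 that was called in both cell types and scored high in both lists, 0.0793 in ESCs, the 74th of 1769, and 0.113 in NPCs, the 31st of 1447. Dbx1, at chr7:49631499-49636849, lay 163 kb from the nearest NAD in ESCs and 563 kb in NPCs. Irx3, at chr8:91798525-91802067, went the other way, 499 kb from the nearest NAD in ESCs and 199 kb in NPCs, with 2 NADs of ESCs and 6 of NPCs within 1500 kb. Pax3, at chr1:78101267-78197134, lay 203 kb from a NAD in ESCs and 401 kb in NPCs. Msx1, at chr5:37820485-37824583, lay 219 kb from a NAD in ESCs and 2174 kb in NPCs. Msx2, at chr13:53466884-53473074, and Pax7, at chr4:139737062-139833528, had no NAD within 1500 kb in either cell type.

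**Figure D3:**
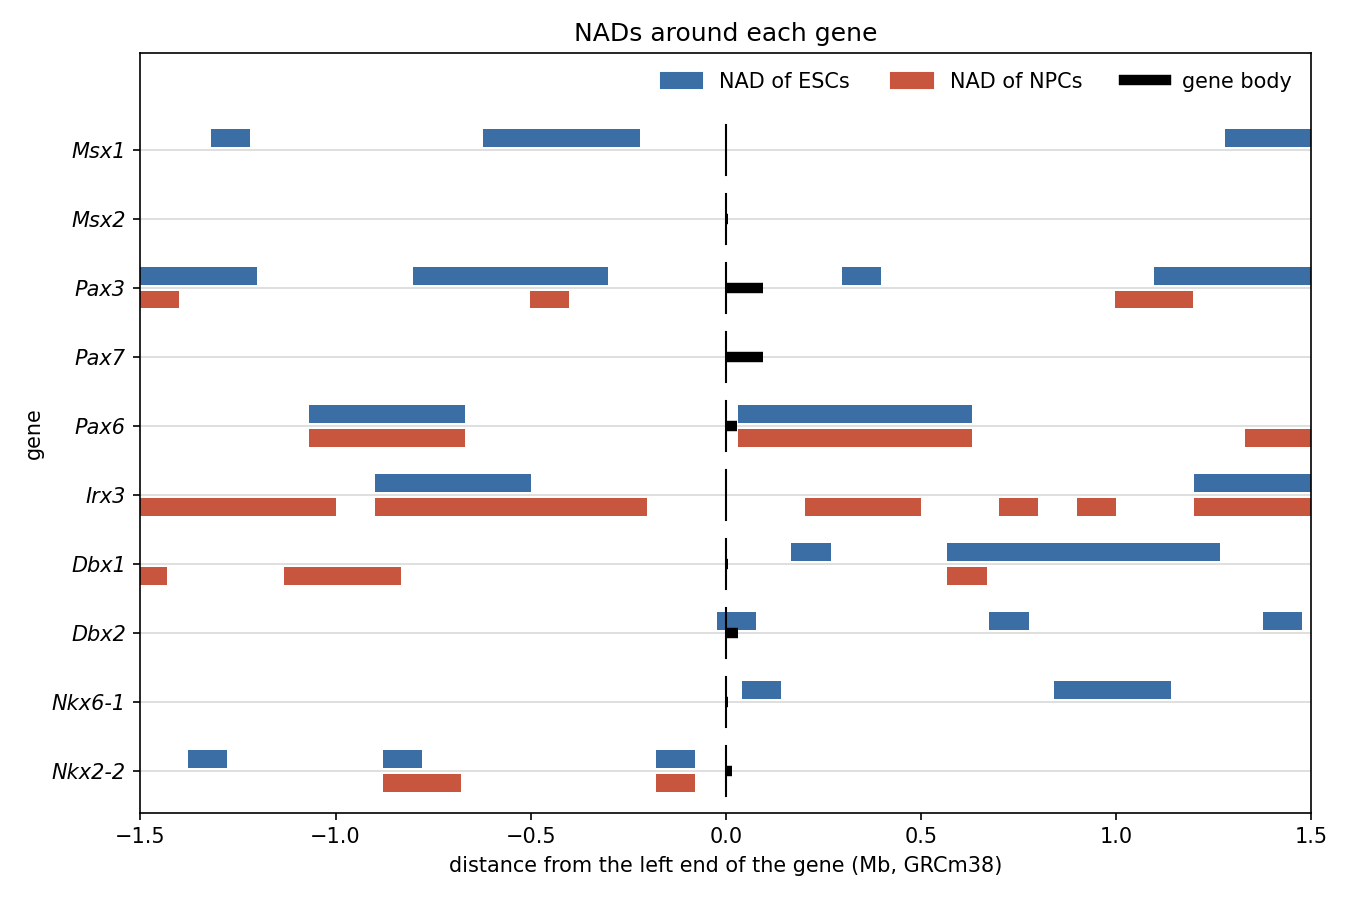
NADs of ESCs and of NPCs within 1.5 Mb of each of the 10 genes, drawn to scale in Mb from the left end of the gene on GRCm38, with the gene body in black. Dbx2 lies inside a NAD of ESCs, Pax6 next to a NAD present in both cell types, and Msx2 and Pax7 have none in the window.

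Most of the annotated genes nearest to the 10 factors were long non-coding RNAs or other genes with no RPKM value, so the nearest gene with a value on each side was also taken, a choice made after seeing the data. With voom, 15 of these 20 neighbours had enough reads, 8 were called higher and 5 lower, against 45.9% and 28.1% of all genes, and those named here are examples chosen after their values were seen. On reads, Nell2, 95.0 kb from Dbx2 and a secreted neuronal protein, rose from 3, 7 and 3 reads to 696, 494 and 705, far more than the 31, 13 and 32 reads of Dbx2 in NPCs. Irx5, 556 kb from Irx3, rose from 3, 3 and 2 to 193, 247 and 363. Htatip2, 122 kb from Dbx1, fell on the log2(RPKM + 1) scale by 1.10 (limma adjusted p = 1.81e-04), while Nav2, 21.4 kb on the other side of Dbx1, was called higher on reads. Htatip2 passed the filter of 1 RPKM through ESCs alone and had to differ, and was called lower on reads too. Rcn1, 270 kb from Pax6, was not called (log2 difference 0.17, limma adjusted p = 0.289) but was with 2 other scalings and without ESC sample 3. Elp4, 3.66 kb from Pax6, was called higher on reads, with 653, 564 and 555 in ESCs and 765, 681 and 781 in NPCs. Nkx2-4 and Pax1, on both sides of Nkx2-2, had 0, 0 and 0 and 0, 0 and 3 reads in NPCs.

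Since most of the 10 genes rose together, the 250 bases before their RefSeq starts were read from the RefSeq promoter table (GRCm38.p6), which held 10 promoters of 9 of the genes, all but Pax3. Of these 10 windows, 7 lay wholly inside the gene as annotated by GENCODE (Msx2, Pax7, the internal start of Pax6, Irx3, Dbx2, Nkx6-1 and Nkx2-2), so they need not be upstream of every transcript. GC content of these bases was 68.0% for Msx1, 65.2% for Pax7 and Nkx6-1, 61.6% for Msx2, 60.8% for the distal and 47.6% for the internal start of Pax6, 58.8% for Dbx2, 56.4% for Nkx2-2, 56.0% for Irx3 and 52.8% for Dbx1, against a median of 52.4% over 32851 promoters. Nkx6-1 held the most CpG, 30, more than 94.1% of all promoters, and Nkx2-2 the fewest, 8, against a median of 6. Of 6 motifs searched on both strands, TAATTA (a homeodomain core) stood before Msx2, GGGTCA (a nuclear receptor core) before Msx1 and Dbx2, and TATAAA before Dbx1, and AGGTCA, TGGGTGGTC and CAGCTG before none of the 9 genes. Over all promoters of that length, 4.84% held TAATTA, 11.6% GGGTCA, 12.4% TATAAA, 14.0% AGGTCA, 0.225% TGGGTGGTC and 13.0% CAGCTG. The matches are shown with 12 bases on each side, on the minus strand of GRCm38.p6, as a description of these windows, with the motif in capitals: Msx1 at chr5:37824718-37824747, Msx2 at chr13:53472950-53472979 and Dbx2 at chr15:95654898-95654927.
Msx1: tcccgcctgtgcGGGTCAggcccttccccg
Msx2: tgactgctcctgTAATTAactcctaattta
Dbx2: actccagcagcaGGGTCAaggcttggcagg

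Dbx1 had the highest exon-scaled level of the 10 genes in NPCs and 0 reads in ESCs, so the 236 bases before its annotated gene body are shown, at chr7:49636850-49637085 on the minus strand of GRCm38.p6. The capitals mark TATAAA, which begins in the Dbx1 promoter 45 bases before the RefSeq start.
Dbx1: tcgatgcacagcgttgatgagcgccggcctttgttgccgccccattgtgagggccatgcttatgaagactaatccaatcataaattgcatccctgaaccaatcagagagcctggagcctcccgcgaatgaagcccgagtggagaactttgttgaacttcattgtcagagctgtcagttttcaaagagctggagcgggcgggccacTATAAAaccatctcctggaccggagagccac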

How the data were processed

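RNA was measured in 3 ESC and 3 NPC samples, grouped by the sample labels. The authors deposited RPKM per gene. Per the study's methods and processing notes, rRNA reads were removed, reads were aligned to mm10 with STAR and exon coverage was counted, with Subread 1.4.6-p4 named in the notes. NADs were deposited as intervals with a score each, made with Bowtie2 2.3.4.3 and a DamID pipeline from peaks common to both replicates. Gene positions and lengths came from GENCODE, by symbol, for 21454 of 22064 lines. Reads were recovered as RPKM times length and total.

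Differences were tested with limma 3.58.1 (R 4.3.3; lmFit, then eBayes using the trend option), fitted to log2(RPKM + 1) for genes at 1 RPKM or more in at least 3 samples, with Benjamini-Hochberg adjustment at 0.05. The fit on reads (voom) took genes with 10 reads or more in at least 3 samples. Tested on simulated data with 200 changed genes, the limma fit recovered 87.0% over 7907 genes and the voom fit 91.0% over 12778. Simulated levels were taken from ESCs. For voom, only genes with more ESC reads than any of the 10 factors were changed, and for limma only genes that passed the filter. The rates thus do not cover the voom calls of these factors, nor the limma calls of Pax3, Pax7 and Dbx2. False calls numbered 8 and 11. The simulated voom fit held fewer genes than the 14541 of the fit on the recovered reads. Ratios of depth-scaled reads have exact binomial 95% intervals. Dishes were separate, and p-values cover the spread between dishes.

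Apart from all 10 factors, the genes named from each list were the 2 called with the largest rise, the 2 called with the largest fall and the 2 highest in NPCs by deposited RPKM, with each family member at 1 RPKM or more. On the exon scale other genes could lie above those 2, as Lhx2 lay above Gata2, and Gata4 above Foxf1 and Col1a1. Genes named beyond this rule were chosen after their values were seen. The members and lists were chosen with earlier results of these data known. Alternatives were other pseudocounts, filters and scalings, no trend, a replicate block, leaving out each sample, exon lengths and the fit on reads. The 10 ChIPseq samples were not used here.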

Additional observations from a re-analysis of the deposited data

How the results depend on the processing

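The 9 calls among the 10 homeobox genes and the absence of a call for Nkx2-2 held with pseudocounts of 0.1 and 0.01, without the trend, with exon lengths, with the same sum of RPKM and without each sample (9 called higher and 0 lower each time). With median centring, Pax3 and Pax7 lost their calls, Dbx2 turned to -0.079 and Nkx2-2 was called at -0.108, so 2 of the 10 genes were called lower. With quantile normalization Dbx2 lost its call. Median centring subtracted the same value from every gene of a sample, also from genes near 0 reads. It moved the median difference of the fit over all genes above 0 from 0.01 to -0.10. The shift was larger than the difference of Dbx2 and Nkx2-2 but not that of Pax3 and Pax7. Depth-scaled reads of Dbx2 and Nkx2-2 were not lower in NPCs (ratios 9.28 and 2.56). Why the medians of the samples differ was not tested. For the 6 genes above the filter, no alternative changed a call. These 6 genes passed it through their NPC samples alone and had to differ, so this adds no support.

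Over all genes, 2915 were called higher and 2636 lower. Without the filter the counts were 7294 and 4247, with a filter of 0.1 RPKM 5458 higher, with the fit on reads, chosen after seeing the data, 6675 and 4085, all over more genes. With the same sum of RPKM 1636 were called lower. RPKM summed to 105011, 106892 and 141243 in ESC samples 1, 2 and 3 and to 86130, 87367 and 86824 in NPC samples 1, 2 and 3. That scaling therefore lowered the values of ESCs and raised those of NPCs. Why the sums differ was not tested. Leaving out a sample gave 2533 to 3464 higher and 2119 to 3487 lower. Replicate numbers did not pair the samples, with correlations of deviations of 0.114, -0.081 and 0.033 for the same number, and not every sample correlated best with its own number. With a replicate block, genes called higher in NPCs numbered 2772 and genes called lower in NPCs 2493, which changed no call among the 10 genes.

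The count of 1 gene overlapping a NAD in ESCs became 3 with 50 kb on each side (33.6% of all genes). It became 0 when only NADs with at least the median score were kept (16.5% of all genes). The count of 0 in NPCs became 1 with 50 kb (27.1% of all genes). With the start site alone or at least 50% of the gene body it was 1 in ESCs and 0 in NPCs. Depth limits Nkx2-2 and Dbx2, with at most 3 and 32 reads in a sample.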
